A study of Mus musculus with 15 samples.

Results

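The mitochondrial genome of the mouse supplies core subunits of the respiratory chain, and 10 of its genes were followed here in primary astrocytes given lipopolysaccharide (LPS) with or without ginsenoside Rg1. The genes were chosen by symbol, as the count tables name them: ND1, ND2, ND4, ND4L and ND5 of complex I, CYTB of complex III, COX1, COX2 and COX3 of complex IV, and ATP6 of complex V. They are 10 of 25748 counted gene symbols, and all 10 were among the 15362 genes with enough counts to be tested. COX1 and COX2 are the cytochrome oxidase genes of the mitochondrion, not the cyclooxygenase genes Ptgs1 and Ptgs2.

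Mitochondria keep a small circular genome that encodes only a few proteins, all of them membrane subunits of the respiratory chain and the ATP synthase. Complex I oxidises NADH, and complex III, of which CYTB is a subunit, passes electrons from ubiquinol to cytochrome c. Complex IV reduces oxygen at a centre in COX1, and ATP6 forms part of the proton channel of the ATP synthase. Complex II has no mitochondrially encoded subunit. Both strands are transcribed into long precursors that are cut mostly at the tRNAs between the genes, after which the mRNAs receive short poly(A) tails, so genes of the same precursor can still differ in level through processing and decay. All other subunits are nuclear and imported. Astrocytes, the glial cells that support neurons, rely largely on glycolysis but hold a complete respiratory chain.

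Polyadenylated RNA of mouse brain astrocytes was sequenced in 15 libraries, 5 in each of 3 groups. Cells of the Rg1 plus LPS group were first kept for 12 h with ginsenoside Rg1, a ginseng saponin, at 80 µM, followed by LPS at 1 µg/mL for 6 to 8 h. Titles name these libraries as Rg1 with a replicate number, whereas their treatment label runs from Rg1 to Rg5 over the 5 libraries; they are grouped here by title. The LPS group, which the submitters label SCI (their in vitro stand-in for injury), received 1 µg/mL LPS for 6 to 8 h with no Rg1. The control group received neither. The labels give no strain, age or number of animals, and the groups analysed here include none with Rg1 and no LPS. No label says whether replicates came from different cultures or different animals. The p-values therefore cover only the spread between these samples, which may be technical.

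Total counts ran from 34.2 to 41.76 M per library. All 10 astrocyte markers were present, with Gfap between 2210 and 4930 CPM (counts scaled to a common library size). Astrocyte markers summed to 7335 to 11840 CPM in Rg1 plus LPS, 7032 to 11790 in LPS and 10460 to 13180 in control. Summed CPM of microglia and macrophage markers lay between 116.6 and 145.4 in Rg1 plus LPS, between 131.5 and 209.8 in LPS and between 128.9 and 221.3 in control, and no marker of that list was at 0. Fibroblast and meningeal markers summed to 2173 to 6654 CPM in Rg1 plus LPS, 4823 to 7014 in LPS and 4568 to 6145 in control. Endothelial markers summed to 123.4 to 154.7 CPM in Rg1 plus LPS, 195.3 to 248.2 in LPS and 152.1 to 201.6 in control, with Cldn5 at 0 in most libraries of Rg1 plus LPS and of LPS and in all of control, and Pecam1 or Emcn at 0 in some. Neuron markers summed to 471.1 to 688.2 CPM in Rg1 plus LPS, 518.8 to 671.8 in LPS and 593.6 to 630.8 in control, while the defining neuronal genes Rbfox3, Snap25, Slc17a6 and Gad2 were at 0 in some libraries of each group. Oligodendrocyte lineage markers summed to 393.1 to 530.7 CPM in Rg1 plus LPS, 398.3 to 493.1 in LPS and 436.8 to 534.1 in control, with Mog, Mag or Sox10 at 0 in some. The part of these other cells in the results was not tested.

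On GRCm38, the build the submitters name, the genes lie on the plus strand of the mitochondrial genome and have no introns. ND1 spans positions 2751 to 3707, ND2 3914 to 4951, COX1 5328 to 6872, COX2 7013 to 7696 and ATP6 7927 to 8607. COX3 spans 8607 to 9390, ND4L 9877 to 10173, ND4 10167 to 11544, ND5 11742 to 13565 and CYTB 14145 to 15288. Neighbouring genes are packed without spacers in places: ATP6 and COX3 share 1 base, and ND4L and ND4 share 7. The stop codon of ND4L therefore lies inside the first codons of ND4, which is shown because these neighbours, which are known to share an mRNA, behaved differently in the counts. Capitals mark the shared bases, from the start codon of ND4 to the stop codon of ND4L, at MT:10147-10193 on the plus strand.
ND4L to ND4 junction: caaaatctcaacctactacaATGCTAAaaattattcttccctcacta

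The annotated ends of the genes are of 2 kinds. The ends of 4 genes are shown because the estimate of ND5 was smaller than those of ND4, CYTB and COX3 for Rg1 plus LPS over LPS. The difference between these genes was not tested. ND5 ends with an encoded stop codon, and so do ND1, ND2, ND4L, COX1, COX2 and ATP6. The log2 fold changes of these others over LPS ran from 0.36 (ND4L) to 1.31 (COX2), so small estimates were not shared by all genes with this end. Whether the kind of end had a part was not tested. ND4, CYTB and COX3 end in a lone T, and their stop codon is completed only when the poly(A) tail is added. The last 24 bases of each gene are given 5′ to 3′, with the encoded stop codon or the lone T in capitals; they are from the GENCODE mouse transcripts at MT:13542-13565, MT:11521-11544, MT:15265-15288 and MT:9367-9390.
ND5: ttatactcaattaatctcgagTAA
ND4: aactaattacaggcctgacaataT
CYTB: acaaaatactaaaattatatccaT
COX3: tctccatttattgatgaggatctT

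The 10 genes together took a larger part of the RNA on average after Rg1 plus LPS than in LPS or control; these shares were not tested. They held 3.98%, 4.47%, 4.06%, 4.96% and 2.77% of all counts in the 5 Rg1 plus LPS libraries, 2.36%, 2.06%, 2.00%, 2.21% and 1.57% in the LPS libraries, and 2.48%, 2.68%, 2.61%, 2.79% and 2.73% in the control libraries. Every Rg1 plus LPS library lay above every LPS library, while replicate 5 of Rg1 plus LPS lay within the control range. Replicate 5 was also the lowest of the LPS group, and these 2 libraries were the most deeply counted, at 41.15 M for Rg1 plus LPS and 41.76 M for LPS. The spread followed the groups: the coefficient of variation of this share was 20.1% in Rg1 plus LPS, 14.6% in LPS and 4.51% in control. In bulk RNA, fewer cells of a type and less RNA per cell cannot be told apart.

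Levels between genes were compared as FPKM, which is scaled to gene length. In Rg1 plus LPS, COX1 was highest at 12200 ± 2320 FPKM, followed by CYTB at 7263 ± 1150, ND1 at 4945 ± 1450, ND2 at 2376 ± 810, ND4 at 2275 ± 426 and ND5 at 1468 ± 329 (SD, n = 5 each). COX3 at 170.3 ± 64.0, COX2 at 169.9 ± 45.2, ATP6 at 78.0 ± 28.9 and ND4L at 16.4 ± 5.30 FPKM followed far below. The intervals of 1 SD overlapped between CYTB and ND1, between ND2 and both ND4 and ND5, and between COX3 and both COX2 and ATP6. The order in LPS was COX1 at 6300 ± 773 FPKM, CYTB at 3107 ± 366, ND1 at 2572 ± 563, ND2 at 1240 ± 340, ND5 at 1109 ± 182 and ND4 at 905 ± 140, so that ND5 stood above ND4 there. COX2 at 63.3 ± 12.7, COX3 at 57.5 ± 8.68, ATP6 at 29.3 ± 7.04 and ND4L at 11.8 ± 3.14 FPKM were again far lower, and the intervals of CYTB and ND1, of ND2, ND5 and ND4, and of COX2 and COX3 overlapped. COX1 in control had 8091 ± 242 FPKM, CYTB 4236 ± 265, ND1 3128 ± 191, ND2 1585 ± 161, ND5 1413 ± 66.1, ND4 1322 ± 106, COX2 87.3 ± 7.69, COX3 84.8 ± 3.13, ATP6 42.1 ± 5.41 and ND4L 15.8 ± 2.12. In control the intervals of ND2, ND5 and ND4 overlapped, as did those of COX2 and COX3.

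**Figure D1:**
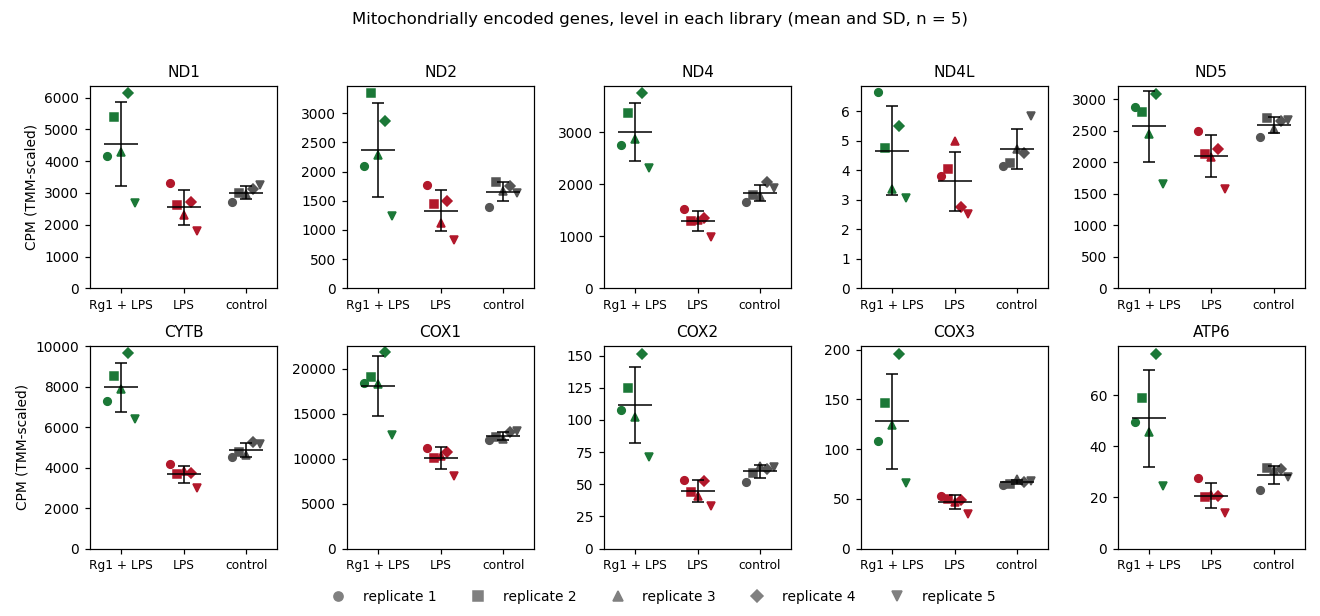
Level of each gene in each library as CPM scaled by TMM factors (vertical axis, from 0), for Rg1 plus LPS (green), LPS (red) and control (grey). Symbols mark replicates, long lines the mean and bars the SD (n = 5). Replicate 5 of Rg1 plus LPS is the lowest of its group in every panel, and the control libraries vary least in most panels.

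Rg1 plus LPS was set against LPS alone, 2 groups that differ by label in the pretreatment. Of the 10 genes, 8 were higher after Rg1 plus LPS and none was lower (edgeR quasi-likelihood test, adjusted p under 0.05 over all 15362 genes), where 45.4% of all genes tested were called and 22.2% of all genes tested were called higher. The median log2 fold change of the 10 was 0.98, against 0.03 over all genes. ND5 and ND4L did not pass; with replicate 5 left out of every group, 9 of the 10 passed. In 5 of the 10 genes (COX1, COX2, COX3, ND4 and CYTB) every Rg1 plus LPS library lay above every LPS library, where 27.5% of all genes did not overlap in either direction and 12.4% were higher without overlap.

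CYTB, the subunit of complex III that is encoded in mitochondria, gave the clearest difference. It had 7323, 8549, 7893, 9678 and 6417 CPM in the Rg1 plus LPS libraries, against 4171, 3678, 3848, 3720 and 3006 CPM in the LPS libraries and 4523, 4790, 4627, 5263 and 5168 CPM in the control libraries. The lowest Rg1 plus LPS library stood above the highest library of both other groups, and all LPS libraries stood below all control libraries. CYTB averaged 7972 ± 1234 CPM in Rg1 plus LPS and 3685 ± 426 CPM in LPS (SD, n = 5 each), a log2 fold change of 1.11 ± 0.11 (SE, edgeR adjusted p = 4.75e-07).

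Complex I genes differed from each other. ND4, a proton-pumping membrane subunit, had 2756, 3361, 2861, 3746 and 2312 CPM in Rg1 plus LPS, against 1526, 1287, 1311, 1350 and 988.1 CPM in LPS and 1648, 1794, 1763, 2042 and 1917 CPM in control. Its groups were as cleanly parted as those of CYTB, with a log2 fold change of 1.22 ± 0.13 for Rg1 plus LPS over LPS (SE, edgeR adjusted p = 1.03e-06). ND1, the subunit next to the quinone site, had 4169, 5391, 4293, 6150 and 2684 CPM in Rg1 plus LPS, against 3303, 2628, 2295, 2704 and 1820 CPM in LPS and 2725, 3003, 2956, 3129 and 3244 CPM in control. Replicate 5 of Rg1 plus LPS lay among the LPS libraries, and the log2 fold change was 0.83 ± 0.18 (adjusted p = 0.00157). ND2, another pumping subunit, ran from 1233 to 3339 CPM in Rg1 plus LPS with a median of 2285, and from 836.3 to 1765 CPM in LPS with a median of 1440. Its groups overlapped, and its log2 fold change was 0.83 ± 0.23 (adjusted p = 0.00748), or 0.55 after removal of a trend with gene length (adjusted p = 0.0812).

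ND5, the largest of the complex I subunits encoded in mitochondria and the farthest out along the membrane arm, had a smaller estimate than its neighbours ND4 and CYTB. It had 2874, 2791, 2441, 3083 and 1650 CPM in Rg1 plus LPS, against 2497, 2125, 2080, 2204 and 1574 CPM in LPS and 2406, 2702, 2533, 2647 and 2667 CPM in control. The groups overlapped, with replicate 5 the lowest of Rg1 plus LPS and of LPS. The log2 fold change of Rg1 plus LPS over LPS was 0.29 ± 0.14 (SE, edgeR adjusted p = 0.103). Without Rg1 plus LPS replicate 5 it was 0.44 and passed (adjusted p = 0.00379). With replicate 5 left out of every group, a choice made after the data were seen, it was 0.35 and also passed (adjusted p = 0.00529).

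ND4L, a small hydrophobic subunit, rested on far fewer reads, between 98 and 275 counts per library. It had 6.64, 4.74, 3.36, 5.51 and 3.05 CPM in Rg1 plus LPS, against 3.82, 4.04, 4.98, 2.77 and 2.53 CPM in LPS and 4.13, 4.26, 4.73, 4.595 and 5.83 CPM in control. The 3 groups overlapped throughout, and the log2 fold change of Rg1 plus LPS over LPS was 0.36 ± 0.22 (SE, edgeR adjusted p = 0.194). That miss does not show equal levels.

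Among complex IV genes, COX1, the catalytic subunit with the oxygen-reducing centre, had 18450, 19110, 18280, 21850 and 12680 CPM in Rg1 plus LPS, against 11170, 10080, 10290, 10770 and 8131 CPM in LPS and 12130, 12470, 12200, 13020 and 13050 CPM in control. Every Rg1 plus LPS library exceeded every LPS library, and replicate 5 fell within the control range. The log2 fold change over LPS was 0.84 ± 0.12 (SE, edgeR adjusted p = 3.3e-05). COX2, which takes electrons from cytochrome c, had 107.5, 124.9, 102.0, 151.4 and 71.6 CPM in Rg1 plus LPS, against 53.7, 44.3, 40.6, 52.5 and 33.0 CPM in LPS and 51.5, 58.8, 64.3, 62.0 and 63.6 CPM in control. Here Rg1 plus LPS lay above both other groups in every library, with a log2 fold change over LPS of 1.31 ± 0.17 (adjusted p = 1.4e-05). COX3, the third core subunit, had 108.0, 146.9, 123.9, 195.5 and 65.6 CPM in Rg1 plus LPS, against 52.5, 50.0, 47.1, 49.0 and 35.1 CPM in LPS and 64.1, 65.0, 69.8, 67.3 and 68.1 CPM in control. Its log2 fold change over LPS was 1.45 ± 0.21 (adjusted p = 3.96e-05), with no overlap between these 2 groups.

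ATP6 of the ATP synthase had 49.5, 59.0, 45.4, 76.0 and 24.6 CPM in Rg1 plus LPS, against 27.8, 20.2, 20.9, 20.6 and 13.8 CPM in LPS and 22.97, 31.4, 30.9, 31.0 and 27.8 CPM in control. Replicate 5 of Rg1 plus LPS lay below LPS replicate 1, while the other 4 libraries lay above all LPS and control libraries. The log2 fold change over LPS was 1.30 ± 0.23 (SE, edgeR adjusted p = 0.000343).

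**Figure D2:**
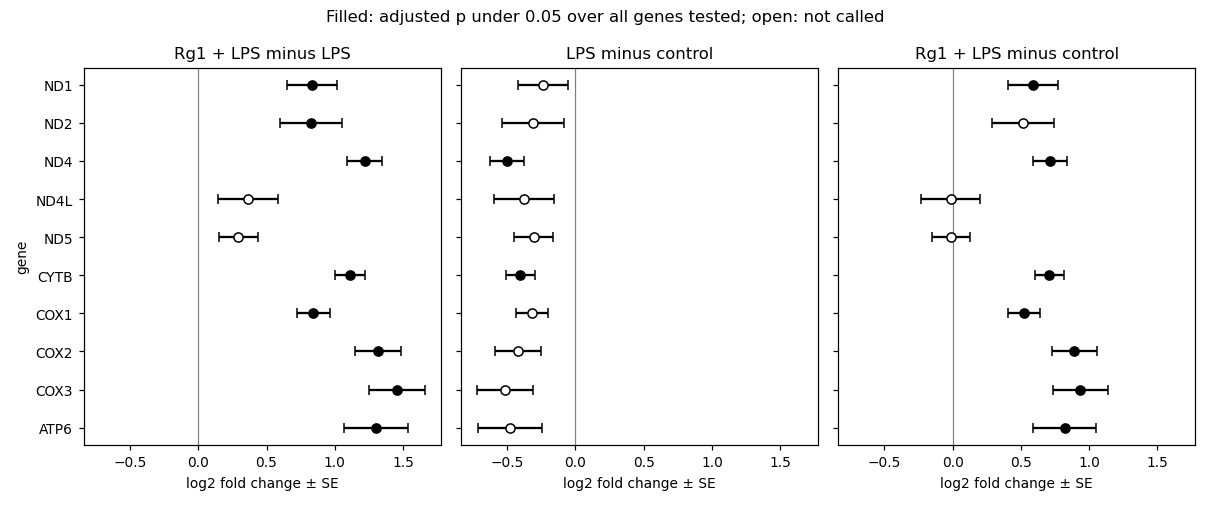
Log2 fold change with its SE (horizontal axis) of each of the 10 genes in the 3 comparisons, from the fit over all 15 libraries; filled points passed an adjusted p of 0.05 over all genes tested. In Rg1 plus LPS minus LPS 8 points are filled and lie between 0.83 and 1.45, in LPS minus control ND4 and CYTB are filled below 0, and in Rg1 plus LPS minus control 7 are filled above 0.

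LPS against control compares the 2 groups without Rg1, and here 2 of the 10 genes were called lower. The share called in either direction was near that over all genes. ND4 and CYTB passed the test as lower and none passed as higher, where 23.7% of all genes tested were called and 9.82% of all genes tested were called lower. ND4 averaged 1292 ± 194 CPM in LPS and 1833 ± 151 CPM in control (SD, n = 5 each; log2 fold change -0.50 ± 0.12, SE, edgeR adjusted p = 0.00751). CYTB averaged 3685 ± 426 CPM in LPS and 4874 ± 327 CPM in control (log2 fold change -0.40 ± 0.11, adjusted p = 0.0114). The estimates of all 10 were negative, between -0.52 and -0.24 with a median of -0.39, against 0.00 over all genes at 2 decimals.

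In 4 of the 10 genes (COX1, COX3, ND4 and CYTB) every LPS library lay below every control library, where 20.4% of all genes did not overlap and 7.64% were lower without overlap. COX1 had a log2 fold change of -0.32 ± 0.12 (SE, edgeR adjusted p = 0.065), COX2 of -0.42 ± 0.17 (adjusted p = 0.0791) and COX3 of -0.52 ± 0.20 (adjusted p = 0.0775). ATP6 had -0.48 ± 0.23, ND4L -0.38 ± 0.22, ND2 -0.31 ± 0.22, ND5 -0.31 ± 0.14 and ND1 -0.24 ± 0.18. This count moved with the libraries in the fit: 5 of the 10 passed without Rg1 plus LPS replicate 4, 6 without Rg1 plus LPS replicate 5 and 7 when only the LPS and control libraries entered the fit. ND4 and CYTB passed in all 15 fits that left out 1 library, with adjusted p of at most 0.0227 for ND4 and 0.0312 for CYTB.

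Rg1 plus LPS against control shows where the pretreated cells stood relative to untreated ones. ND1, ND4, CYTB, COX1, COX2, COX3 and ATP6 were higher, 7 of the 10, and none was lower, where 36.9% of all genes tested were called and 18.8% of all genes tested were called higher. The median log2 fold change of the 10 was 0.65, against 0.01 over all genes. COX2, ND4 and CYTB did not overlap between the groups, 3 of the 10, where 26.2% of all genes did not overlap and 13.2% were higher without overlap.

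COX3 had the largest estimate in Rg1 plus LPS against control, 0.94 ± 0.20 (SE, edgeR adjusted p = 0.00214), followed by COX2 with 0.89 ± 0.17 (adjusted p = 0.00068) and ATP6 with 0.82 ± 0.23 (adjusted p = 0.0116). ND4 had 0.71 ± 0.13 (adjusted p = 0.000354) and CYTB 0.71 ± 0.11 (adjusted p = 9.6e-05). ND1 had 0.59 ± 0.18 (adjusted p = 0.0183) and COX1 0.52 ± 0.12 (adjusted p = 0.00287). ND2 missed with 0.52 ± 0.23 (adjusted p = 0.0851), and passed with 0.69 when Rg1 plus LPS replicate 5 was left out (adjusted p = 0.00941). ND1 missed without Rg1 plus LPS replicate 4 (0.46, adjusted p = 0.0554) and with no filter on low counts (adjusted p = 0.0585). After removal of a trend with gene length ND1 (0.37, adjusted p = 0.167) and ATP6 (0.56, adjusted p = 0.0971) missed as well. ND5 and ND4L had estimates near 0, at -0.01 ± 0.14 and -0.01 ± 0.22. The 3 comparisons share libraries pairwise, so their values are given side by side and are not independent of each other.

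Shares within the mitochondrial pool do not depend on how libraries are scaled against nuclear genes. The pool was taken as the counts of all 13 mitochondrially encoded protein genes, and nearly all of it came from COX1, CYTB, ND1, ND5, ND4 and ND2 in every library. ND5 took 7.56%, 6.49%, 6.35%, 6.43% and 6.07% of the pool in the Rg1 plus LPS libraries, 10.1%, 9.92%, 9.85%, 9.81% and 9.55% in the LPS libraries, and 9.60%, 10.1%, 9.73%, 9.42% and 9.55% in the control libraries. All 5 Rg1 plus LPS libraries lay well below all other libraries, replicate 5 included, and the LPS and control libraries overlapped.

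CYTB showed the opposite. It took 19.3%, 19.9%, 20.5%, 20.2% and 23.6% of the pool in Rg1 plus LPS, 16.9%, 17.2%, 18.2%, 16.6% and 18.2% in LPS, and 18.0%, 17.9%, 17.8%, 18.7% and 18.5% in control, so that Rg1 plus LPS was above both other groups in every library. ND4 took 7.25 to 8.51% in Rg1 plus LPS, 6.00 to 6.21% in LPS and 6.57 to 7.27% in control. COX1 stayed within 44.4 to 48.5% in Rg1 plus LPS, 45.3 to 49.3% in LPS and 46.3 to 48.4% in control, with full overlap. COX2 took 0.264 to 0.316% in Rg1 plus LPS, 0.192 to 0.234% in LPS and 0.205 to 0.247% in control.

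The counts of ND5 per count of CYTB show the same contrast between neighbouring genes in a single value. They were 0.392, 0.326, 0.309, 0.319 and 0.257 in Rg1 plus LPS, against 0.599, 0.578, 0.541, 0.592 and 0.523 in LPS and 0.532, 0.564, 0.547, 0.503 and 0.516 in control. No Rg1 plus LPS library reached the lowest library of the other groups. This ratio was picked after the values were seen and is given as a description, with no test. ND5 per ND4, likewise untested, was 0.853 ± 0.119 in Rg1 plus LPS, 1.62 ± 0.0282 in LPS and 1.42 ± 0.0799 in control (SD, n = 5 each), whereas ND4 per CYTB was 0.376 ± 0.0145, 0.350 ± 0.0155 and 0.376 ± 0.00917 in Rg1 plus LPS, LPS and control.

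**Figure D3:**
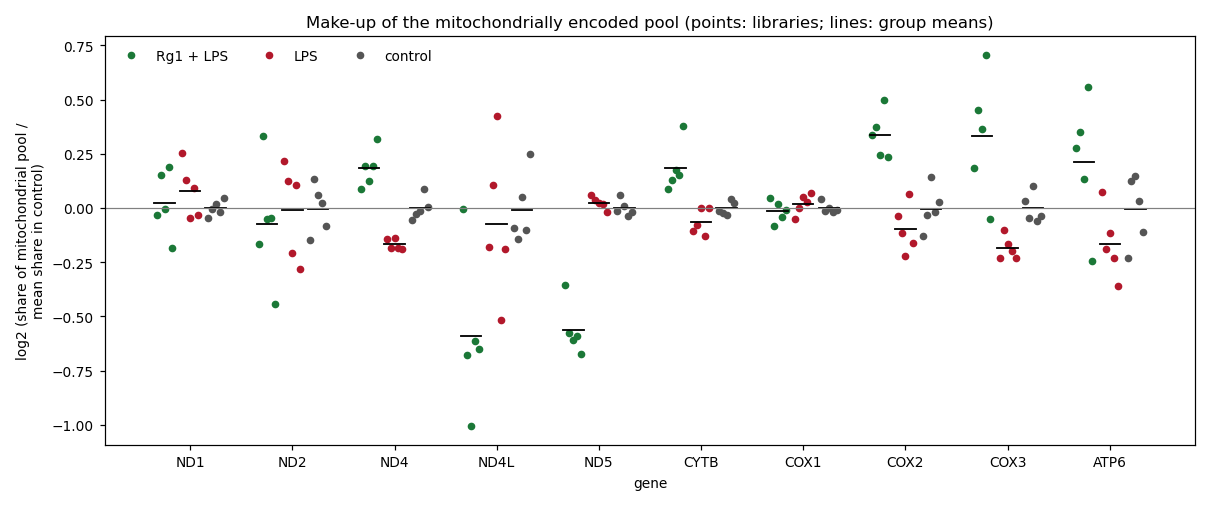
Log2 of each gene's share of the mitochondrial pool relative to its mean share in control (vertical axis), for Rg1 plus LPS (green), LPS (red) and control (grey); points are libraries and lines group means. ND5 lies below 0 in all 5 Rg1 plus LPS libraries, at 6.07 to 7.56% of the pool, while COX1 stays near 0 in all groups and ND4L scatters most.

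When the edgeR fit was scaled to the pool in place of the TMM-scaled library, ND5 was lower in Rg1 plus LPS than in LPS by a log2 fold change of -0.58 ± 0.17 (SE, adjusted p = 0.00245 over all genes) and lower than in control by -0.56 ± 0.17 (adjusted p = 0.00718). ND4L was lower as well, by -0.51 ± 0.22 against LPS (adjusted p = 0.039) and by -0.55 ± 0.22 against control (adjusted p = 0.0414). COX2 and COX3 were higher against LPS, with 0.43 ± 0.14 (adjusted p = 0.00663) and 0.54 ± 0.15 (adjusted p = 0.0019), and ATP6 was higher with 0.40 ± 0.16 (adjusted p = 0.0256). Against control COX2 had 0.34 ± 0.14 (adjusted p = 0.0441) and COX3 0.35 ± 0.15 (adjusted p = 0.0492). CYTB, although its groups did not overlap, did not pass against LPS (0.25 ± 0.17, adjusted p = 0.189) or control (0.19 ± 0.17, adjusted p = 0.371). In this fit the spread of each gene is drawn toward that of all genes, most of them nuclear and here scaled to the pool. The SE values therefore do not measure the spread of the shares alone, and a miss does not show equal shares.

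That made 5 of the 10 called against LPS, where this scaling called 75.5% of all genes, and 4 of the 10 against control, where it called 48% of all genes. With so many genes called, adjustment over all genes changed p little, and no adjustment over the 10 genes alone was made. Unadjusted p (edgeR) was 0.0288 for ND4L against LPS, and 0.019 for ND4L, 0.0206 for COX2 and 0.0236 for COX3 against control. These calls therefore depend on how many genes this scaling called. The groups did not overlap within the pool in 5 of the 10 against LPS (COX2, COX3, ND4 and CYTB higher, ND5 lower; 45.3% of all genes) and in 3 of the 10 against control (COX2 and CYTB higher, ND5 lower; 28% of all genes). Between LPS and control, edgeR called none of the 10 within the pool, where 32.1% of all genes were called. None of the 10 had an unadjusted p under 0.05. COX3 and ND4, 2 of the 10, lay lower in LPS without overlap, where 35.1% of all genes did not overlap. ND4 took 6.08 ± 0.107% of the pool in LPS and 6.83 ± 0.265% in control (SD, n = 5 each). These misses therefore do not show an unchanged make-up of the pool. The call of ND5 held in all 15 fits that left out 1 library, with adjusted p of at most 0.0082 against LPS and 0.0216 against control. The other calls within the pool were less stable. Against LPS the count fell to 3 without Rg1 plus LPS replicate 2 or 4. Against control it fell to 1, ND5 alone, without Rg1 plus LPS replicate 2, 3 or 4, LPS replicate 2 or any single control library, and to 2 without LPS replicate 3 or 4.

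The 3 mitochondrial protein genes outside the set were low. ND3 rose to 7.13 ± 2.05 CPM in Rg1 plus LPS, against 3.10 ± 0.88 CPM in LPS (SD, n = 5 each; ratio of means 2.30, edgeR adjusted p = 0.000293). ND6, the only protein gene on the other strand, had 88.9 ± 35.5 CPM in Rg1 plus LPS and 66.4 ± 24.2 CPM in LPS and did not pass (log2 fold change 0.42 ± 0.32, adjusted p = 0.299). It shares 14 bases with ND5 in opposite orientation, and since the strand setting of the counting is not given in the sources used here, reads of ND6 and of RNA antisense to it cannot be told apart. ATP8 had 0 to 105 counts per library and did not pass (adjusted p = 0.117).

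Much of the coding sequence of some of these genes is also present in the nuclear genome, and this ran with their levels. Of all 100-base windows of a gene, the share that also occurs in an annotated nuclear transcript was 0% for ND1, ND5 and CYTB, 3.2% for ND2, 30.8% for COX1 and 60.8% for ND4. It was 99.5% for COX2, 99.5% for ATP6, 99.9% for COX3 and 98.5% for ND4L. The genes that are copied almost in full are the ones at or below 170.3 FPKM on average in every group, while each of the others averaged 905 FPKM or more. They are also the shorter ones: the longest of them, COX3, has 784 bases, and the shortest of the others, ND1, has 957. Outside the set, ND6 and ATP8 share no window and were low as well. Whether the copies or gene length had a part in the levels was not tested.

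A block of copies lies on chromosome 1 of GRCm38, on the minus strand between 24611535 and 24616197. Gm28437 matches 783 of the 784 bases of COX3 with 0 mismatches, Gm10925 678 of the 681 bases of ATP6, Gm28661 681 of the 684 bases of COX2 and Gm10222 294 of the 297 bases of ND4L, likewise with 0 mismatches. Gm28439 matches the first 876 bases of ND4 with 0 mismatches, and Gm28438 covers 345 of the 348 bases of ND3 with 1 mismatch. Gm29216 covers bases 1054 to 1545 of COX1 with 6 differences, all at its start (T1056A, C1057T, A1059G, A1060G, C1062A and A1066T, counted from the first base of COX1, with the base of COX1 first). Windows of ND2 were also found in Gm13339, of COX1 in Gm13340 and of COX2 in Gm13341, which are not part of this block. How the authors' counting treated reads that match both places is not given in the sources used here. The levels and folds of COX2, COX3, ATP6, ND4L and ND3 are therefore uncertain, and those of COX1 and ND4 in part. Whether shared reads had a part in the larger folds of COX2, COX3 and ATP6 was not tested. ND1, ND5 and CYTB had no such window among annotated transcripts; shorter or imperfect matches and unannotated copies were not searched.

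**Figure D4:**
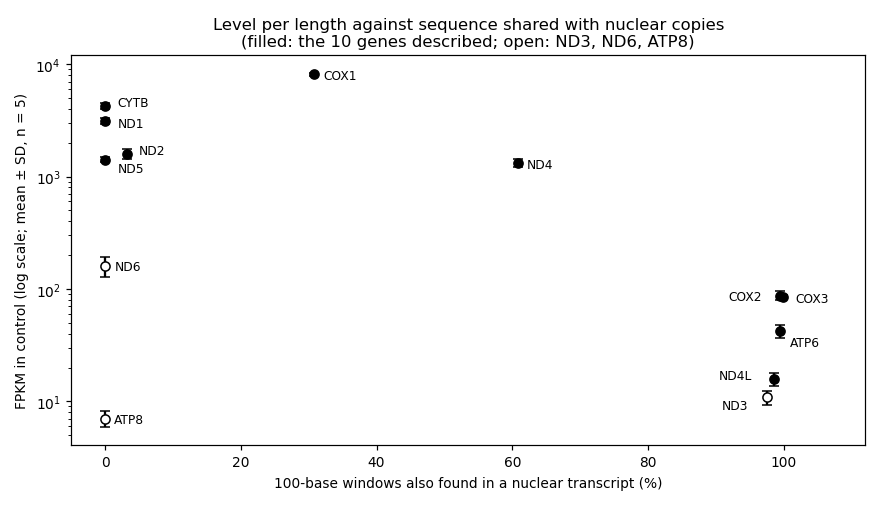
Mean level in control as FPKM (vertical axis, log scale, bars SD, n = 5) against the share of 100-base windows of each gene that also occur in an annotated nuclear transcript (horizontal axis, percent), for the 10 genes (filled) and ND3, ND6 and ATP8 (open). COX2, COX3, ATP6 and ND4L, at 98.5 to 99.9%, lie at or below 87.3 FPKM, whereas CYTB, ND1, ND2, ND5, COX1 and ND4 lie at 1322 FPKM or more. ND3, at 97.6%, lies at 10.9 FPKM, while ND6 and ATP8 share none and are low as well.

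The counted levels of ND4L and ND4 lay far apart. Per length, ND4L reached 0.00722 ± 0.00227 of the level of ND4 in Rg1 plus LPS, 0.0130 ± 0.00313 in LPS and 0.0119 ± 0.00143 in control (SD, n = 5 each). The genes overlap by the 7 bases printed above and are known as a pair on 1 mRNA, so their counted levels do not stand for separate transcripts. Of the windows of ND4L 98.5% also occur in an annotated nuclear transcript, against 60.8% for ND4. ND4L also rested on only 98 to 275 counts per library. Whether shared reads or low counts had a part in this gap, or in its differences between groups, was not tested.

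Over the 15 libraries, the log2 CPM of ND1, ND2, COX1, COX2, COX3, ATP6, ND4 and CYTB each followed the mean of the other members with a Pearson r between 0.923 and 0.989, as a description over libraries that share treatment and depth. ND5 followed it with r = 0.758 and ND4L with r = 0.55. Among the nuclear genes with the most similar pattern, of those averaging at least 5 CPM, were Gng5 (r = 0.937), Commd6 (0.927), Sccpdh (0.919), Bbip1 (0.917) and Sar1b (0.915). Gng5, a G protein gamma subunit, had 121 ± 10.8 CPM in Rg1 plus LPS, 101 ± 6.27 in LPS and 110 ± 4.74 in control. Commd6 had 40.6 ± 3.62 CPM in Rg1 plus LPS, 30.0 ± 1.49 in LPS and 34.0 ± 1.81 in control.

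The nuclear partners of these subunits were also higher in Rg1 plus LPS than in LPS, by smaller amounts. Of 37 nuclear complex I subunits tested 30 rose and 1 fell, with a median log2 fold change of 0.33, where 22.2% of all genes rose and 23.2% fell. Ndufa2, an accessory subunit, had 110 ± 9.37 CPM in Rg1 plus LPS and 75.5 ± 6.59 CPM in LPS (SD, n = 5 each; log2 fold change 0.54 ± 0.07, SE, edgeR adjusted p = 6.45e-06). Ndufb7 rose by 0.42 ± 0.06 and Ndufa5 by 0.46 ± 0.06. Ndufs1, a core subunit that carries iron-sulfur clusters, fell by 0.19 ± 0.05 (adjusted p = 0.00407).

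Complex III and complex IV followed the same direction. Of 9 nuclear complex III subunits 5 rose and none fell, with a median of 0.21, among them the hinge protein gene Uqcrh (0.41 ± 0.05) and Uqcr11 (0.47 ± 0.08). All 12 nuclear complex IV subunits rose, with a median of 0.25, among them Cox4i1 (391 ± 25.6 CPM in Rg1 plus LPS and 315 ± 21.2 CPM in LPS, log2 fold change 0.31 ± 0.06, edgeR adjusted p = 0.000383) and Cox7b (0.34 ± 0.05). Of 16 nuclear complex V subunits 10 rose and none fell, with a median of 0.19, led by Atp5e, the epsilon subunit (0.59 ± 0.08), and Atp5j2 (0.43 ± 0.06). Of the 4 complex II subunits, which have no mitochondrially encoded partner, none rose and Sdha, the flavoprotein subunit, fell by 0.15 ± 0.05 (adjusted p = 0.034). The median for the 10 mitochondrially encoded genes, 0.98, lay above the median of each of these nuclear lists; that difference itself was not tested.

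Few nuclear subunits differed between LPS and control. No subunit rose, and Ndufc2 of complex I fell by 0.28 ± 0.07 (SE, edgeR adjusted p = 0.0104), the single call among complexes I, II, III, IV and V. Over all genes 13.8% rose and 9.82% fell in LPS against control. Against control, Rg1 plus LPS had 22 complex I subunits that rose and 1 that fell, 5 and 1 of complex III, 8 and 0 of complex IV, and 9 and 1 of complex V. Over all genes 18.8% rose and 18.1% fell there. Of complex II none rose and Sdha fell by 0.30 ± 0.05 (adjusted p = 0.000442). Ndufs1 fell by 0.25 ± 0.05, Uqcrc2, a core protein of complex III, fell by 0.14 ± 0.05, and Atp5a1, the alpha subunit of the ATP synthase, fell by 0.17 ± 0.06.

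Genes that copy and transcribe mitochondrial DNA moved as well. Of 18 tested, 9 rose and none fell in Rg1 plus LPS against LPS, where 22.2% of all genes rose and 23.2% fell. Mterf2, of the family of mitochondrial transcription termination factors, had 6.10 ± 0.96 CPM in Rg1 plus LPS and 2.62 ± 0.60 CPM in LPS (SD, n = 5 each; log2 fold change 1.22 ± 0.16, SE, edgeR adjusted p = 1.27e-05). Polg2, the accessory subunit of the mitochondrial DNA polymerase, rose by 0.87 ± 0.18 and Ssbp1, the mitochondrial single-stranded DNA binding protein, by 0.52 ± 0.07. Of these, Mterf2 fell by 0.71 ± 0.16, Polg2 fell by 0.53 ± 0.18 and Ssbp1 fell by 0.24 ± 0.07 in LPS against control, where 4 genes of the list fell in all, while Polrmt, the mitochondrial RNA polymerase, rose by 0.34 ± 0.08 (adjusted p = 0.00665). Relative to control, Rg1 plus LPS had 8 that rose and none that fell, with Polrmt at 0.51 ± 0.08, Rnaseh1 at 0.63 ± 0.11 and Mgme1 at 0.79 ± 0.17. Over all genes 18.8% rose and 18.1% fell there, and 13.8% rose and 9.82% fell in LPS against control.

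Of 22 genes tested for processing and stability of mitochondrial RNA, 6 rose and 4 fell in Rg1 plus LPS against LPS, shares near the 22.2% higher and 23.2% lower over all genes, with a median log2 fold change of 0.08. Ptcd2 rose by 0.60 ± 0.10 (SE, edgeR adjusted p = 8.25e-05), Fastk by 0.40 ± 0.08 and Slirp by 0.38 ± 0.07. Lrpprc, whose protein binds SLIRP and stabilises mitochondrial mRNAs, fell by 0.38 ± 0.09 (adjusted p = 0.00309), Fastkd5, known from human cells for cutting precursors that lack a tRNA between genes, fell by 0.60 ± 0.11 (adjusted p = 0.000446), and Mtpap, the mitochondrial poly(A) polymerase, fell by 0.29 ± 0.08 (adjusted p = 0.0104). LPS against control gave 2 that rose, Tbrg4 by 0.36 ± 0.08 and Supv3l1 by 0.23 ± 0.07, and none that fell. Rg1 plus LPS against control gave 9 that rose and 2 that fell: Fastkd5 fell by 0.41 ± 0.12 and Mtpap fell by 0.26 ± 0.08. Over all genes 13.8% rose and 9.82% fell in LPS against control, and 18.8% rose and 18.1% fell in Rg1 plus LPS against control.

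Proteins of the mitochondrial ribosome, which translates these mRNAs, rose widely. Of 78 genes 56 rose and none fell in Rg1 plus LPS against LPS, with a median log2 fold change of 0.29. Against control 59 rose and none fell in Rg1 plus LPS, also with a median of 0.29. Over all genes 22.2% rose and 23.2% fell against LPS, and 18.8% rose and 18.1% fell against control. Mrpl42 rose by 0.57 ± 0.06 (SE, edgeR adjusted p = 2.03e-06) and Mrpl34 by 0.61 ± 0.07 against LPS, and Mrpl12 rose by 0.59 ± 0.07 against control. Between LPS and control 4 rose in LPS and none fell, among them Mrpl45 by 0.32 ± 0.08, where 13.8% of all genes rose and 9.82% fell.

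Of 16 regulators of mitochondrial biogenesis tested, 2 rose and 5 fell in Rg1 plus LPS against LPS, where 22.2% of all genes rose and 23.2% fell. In LPS against control 4 rose and 1 fell, where 13.8% of all genes rose and 9.82% fell, and in Rg1 plus LPS against control 2 rose and 3 fell, where 18.8% rose and 18.1% fell. Ppargc1a, the coactivator PGC-1alpha, rose by 0.36 ± 0.14 against LPS (SE, edgeR adjusted p = 0.0471). Pprc1, a related coactivator, had 21.6 ± 3.33 CPM in Rg1 plus LPS, 49.9 ± 4.13 CPM in LPS and 37.6 ± 5.93 CPM in control (SD, n = 5 each; adjusted p = 4.17e-07 for Rg1 plus LPS against LPS). Gabpb1, a subunit of nuclear respiratory factor 2, fell by 0.92 ± 0.16 in Rg1 plus LPS against LPS and rose by 0.98 ± 0.16 in LPS against control.

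Of 15 genes for mitochondrial protein quality and stress tested, 4 rose and 2 fell in Rg1 plus LPS against LPS, where 22.2% of all genes rose and 23.2% fell. In LPS against control 1 rose and none fell, where 13.8% of all genes rose and 9.82% fell. In Rg1 plus LPS against control 5 rose and 1 fell, where 18.8% of all genes rose and 18.1% fell. Gdf15, a secreted factor induced by mitochondrial stress, had 5.85 ± 2.28 CPM in Rg1 plus LPS, 20.4 ± 1.43 CPM in LPS and 3.66 ± 0.516 CPM in control (SD, n = 5 each; edgeR adjusted p = 2.02e-06 for Rg1 plus LPS against LPS and 1.31e-07 for LPS against control).

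Markers of cell types are given by their counts of calls, beside 45.4% of all genes called in Rg1 plus LPS against LPS, 23.7% in LPS against control and 36.9% in Rg1 plus LPS against control. Among 10 astrocyte markers, 4 rose and 1 fell in Rg1 plus LPS against LPS, with Sox9 higher by 0.81 ± 0.12 on the log2 scale (SE). Of 14 microglia and macrophage markers 7 fell, and Itgam fell by 2.73 ± 0.43. Itgam was low, at 0.549 ± 0.199 CPM in Rg1 plus LPS and 3.65 ± 2.10 CPM in LPS (SD, n = 5 each). The median log2 fold change of that list was -1.57 against LPS and -1.35 for Rg1 plus LPS against control, although its summed CPM overlapped between groups. Of 5 endothelial markers tested 2 fell, of 8 fibroblast and meningeal markers 1 fell, of 6 neuron markers tested 1 rose, and of 7 oligodendrocyte lineage markers tested 2 rose and 3 fell. LPS against control had 5 astrocyte, 2 neuron and 1 oligodendrocyte lineage marker that fell and 1 endothelial marker that rose. Rg1 plus LPS against control had 4 astrocyte, 5 microglia and macrophage, 2 neuron, 2 oligodendrocyte lineage and 3 endothelial markers that fell, and 1 neuron and 2 oligodendrocyte lineage markers that rose.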

How the data were processed

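Poly(A) RNA of 15 libraries was read from deposited gene tables that hold raw read counts and FPKM made by the authors; FPKM equals the deposited count per gene length and per library total, to a relative deviation of 7.22e-10. Both GRCm38 and mm10 appear as builds in the submitters' processing notes. The aligner is not given in the sources used here, nor are the counter, its strand setting and its treatment of reads with several matches. At most 37 damaged FPKM rows per library were left out, none of a gene described.

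Libraries were grouped by their titles. Counts were filtered with filterByExpr, scaled with TMM factors (giving CPM) and fitted over all 15 libraries by group with the quasi-likelihood test of edgeR 4.0.16 in R 4.3.3. Two-sided p-values were adjusted by Benjamini-Hochberg over all 15362 genes, and a gene was called at 0.05. SE is the log2 fold change divided by the root of F. The precision of each value is limited by the spread of 5 libraries. On simulated data 92 to 96 of 100 genes changed by a factor of 2 were recovered, depending on the comparison, and 65 to 73 of 100 changed by a factor of 1.5. No library pair agreed within sampling noise. Pool shares divide by the counts of the 13 mitochondrial protein genes. Their sum is fixed, so a lower share of 1 gene raises others.

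The members and gene lists were chosen with earlier results of these data known. Named list genes are those with the smallest p called in each direction; the 6 nuclear genes most alike had the highest Pearson r with the mean pattern of the 10, and 1 of these is not reported here. Sequences, positions and copies come from the GENCODE vM21 annotation and transcripts (GRCm38). Mitochondrial rRNA is not analysed here. Alternatives used DESeq2 1.42.0, limma 3.58.1, other scalings and filters, a length correction, a replicate block and left-out libraries; the scaling to the pool and the fit without replicate 5 of every group were chosen after seeing the data.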

Additional observations from a re-analysis of the deposited data

Results flagged for a closer look

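The shares of the mitochondrial pool and levels of each gene were screened for single libraries far from the other 4 of their group, and 2 of 66 groups held one, where chance flags about 1 in 20. Rg1 plus LPS replicate 1 had the highest share of ND5 in its group, 7.56%, with the other 4 libraries at 6.07 to 6.49%; it still lay below every LPS and control library. Control replicate 1 had the highest share of COX1 in its group, 48.4%, with the other 4 at 46.3 to 46.9%; the LPS libraries reached higher.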

How the results depend on the processing

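Of the 10 genes, 8 were called in Rg1 plus LPS against LPS, and 7 to 9 were under the alternatives; 7 were called in Rg1 plus LPS against control, and 5 to 8 were. No direction of a called value reversed. The count in LPS against control moved most: 2 as fitted, 5 with the DESeq2 Wald test, 7 with only the 2 groups compared, and 2 to 6 when 1 library was left out. In no comparison did all same-number correlations exceed 0.1, so the numbers were not taken to pair the samples; they ran from 0.05 to 0.424 in Rg1 plus LPS against LPS, where 3 of 5 numbers matched best with themselves, from -0.222 to 0.155 in LPS against control and from -0.218 to 0.136 in Rg1 plus LPS against control. With the replicate number as a block, 8, 6 and 7 were called in Rg1 plus LPS against LPS, LPS against control and Rg1 plus LPS against control. Without replicate 5 of every group the counts in that order were 9, 3 and 8. Scaled to the mitochondrial pool, leaving out 1 library gave 3 to 6 calls against 5 for Rg1 plus LPS against LPS, and 1 to 5 against 4 for Rg1 plus LPS against control. ND5 in Rg1 plus LPS against LPS was called with library sizes alone (0.41, adjusted p = 0.0297) and with limma on log2(FPKM + 1) (0.39, adjusted p = 0.0469). With library sizes alone the median of all genes was 0.14, -0.05 and 0.08, and 65% of called genes were higher in Rg1 plus LPS than in LPS, against 48.9% with TMM; in LPS against control 45.9% were higher, against 58.5%, and in Rg1 plus LPS against control 63.9%, against 50.9%. The cause of the moved counts and calls was not tested. Low counts of ND4L limit its precision.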
